A study of Mus musculus with 2 samples.

Results

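The Mir379 to Mir410 cluster is a run of miRNA genes on the plus strand of distal mouse chromosome 12, within the imprinted Dlk1-Dio3 domain. Its members were chosen by position, as plus-strand miRNA genes between 109709060 and 109747960 of assembly GRCm38 (mm10), with earlier results of these data known. There were 38 of them, among 1973 annotated miRNA genes in the deposited tables. For 34 members the counts are those of the gene's own strand. The other 4, Mir409, Mir376a, Mir299a and Mir380, have no row of their own, and their reads were counted on the opposite strand of the minus-strand genes Gm24321, Gm25252, Mir299b and Gm25750, which lie over them. Annotation release M21 has 39 plus-strand miRNA genes in the interval, and the remaining 1, Mir376b, is not analysed here. Of the identifiers used, 13 carry another version number in that release, so their counted intervals may differ from the positions given here.

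Small RNA of under 30 nucleotides was sequenced from liver of B6NCrl mouse embryos at day 15.5, when the liver also makes blood cells. The 2 libraries form a single group, and each came from pooled healthy embryos of both sexes, 78 in replicate 1 and 62 in replicate 2. No other condition was sampled, so no contrast of treatments, genotypes or ages is possible, and the spread between the libraries is that of pools and library making. In a bulk sample, fewer cells of a type and less RNA per cell cannot be told apart.

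As background, miRNA genes of the cluster are transcribed from the maternal chromosome as long noncoding RNAs, part of which is annotated as Mirg. Drosha and Dicer cut hairpins from these RNAs into miRNAs of which each can repress mRNAs that pair with its seed, bases 2 to 8. The cluster is best known from brain and placenta, and mice that lack it have trouble keeping up blood glucose after birth, with altered gene expression in the newborn liver.

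The mature arms of the 6 most abundant members are shown first, because they carry most of the cluster's signal. The sequences are RefSeq entries on GRCm38.p6, 5′ to 3′, with the seed in capitals. The counts do not separate the arms of a hairpin, so both are given where the table has them.
miR-411-5p: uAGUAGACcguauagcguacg
miR-411-3p: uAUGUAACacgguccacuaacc
miR-409-5p: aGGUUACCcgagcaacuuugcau
miR-409-3p: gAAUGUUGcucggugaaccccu
miR-487b-5p: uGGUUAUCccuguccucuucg
miR-376a-5p: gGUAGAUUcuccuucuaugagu
miR-376a-3p: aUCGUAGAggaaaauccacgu
miR-369-5p: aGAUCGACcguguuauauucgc
miR-369-3p: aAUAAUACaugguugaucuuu
miR-379-5p: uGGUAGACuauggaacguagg
miR-379-3p: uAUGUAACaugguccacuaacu

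RefSeq had an entry for 37 of the 38 members, with 69 mature arms of 19 to 25 bases. These arms carried 64 different seeds. Exact seed sharing among them joined 5 pairs of arms and 9 members. For Mir376c, Mir487b, Mir539, Mir485 and Mir453 not both arms were listed, so sharing by an unlisted arm was not covered. The arms miR-379-3p and miR-411-3p above share AUGUAAC, and the other shared seeds lie in the following arms.
miR-1193-5p: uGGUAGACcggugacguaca
miR-1197-5p: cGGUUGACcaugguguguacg
miR-758-5p: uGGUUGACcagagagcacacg
miR-494-5p: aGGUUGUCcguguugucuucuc
miR-410-5p: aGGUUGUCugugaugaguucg
miR-453: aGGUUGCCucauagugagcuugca
miR-496a-5p: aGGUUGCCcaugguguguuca
The seed of miR-1193-5p is that of miR-379-5p. The run GGUU, picked after the sequences were seen and searched on the RNA strand only, occurred in the seed of 13 of the 69 arms (18.8%), from 13 members, against 45 of 1738 mature entries of all mouse miRNAs in the table (2.59%). No arm was found whole in the hairpin of another gene, so none of the listed mature sequences is an exact copy of a sequence in another listed hairpin.

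Several hairpins also share a stretch in the loop that begins in the last bases of the mature arm before it. The run CGCUUUA, picked after the sequences were seen and searched on the RNA strand only, was present in 7 of the 35 member hairpins in the table (20%), in 0 of the 968 hairpins outside the interval, and so in 0.697% of all 1005. A match is a description of the letters, not evidence of a site. Of the 7, the highest, the second highest and the lowest by level are printed to show how alike their loops are, with the run in capitals.
Mir411: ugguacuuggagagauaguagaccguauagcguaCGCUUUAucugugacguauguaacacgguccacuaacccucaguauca
Mir154: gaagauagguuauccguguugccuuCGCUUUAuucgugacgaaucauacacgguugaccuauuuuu
Mir1197: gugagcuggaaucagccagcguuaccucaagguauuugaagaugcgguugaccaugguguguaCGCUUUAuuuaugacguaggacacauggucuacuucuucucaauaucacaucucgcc
They lie on the plus strand at chr12:109710175-109710256, chr12:109738433-109738498 and chr12:109712317-109712436. Levels of the 7 ran from 3.25 to 24488 CPM (counts scaled to a total of 1000000 miRNA gene counts), with a median of 1704 CPM. The shared run thus went with both the highest and some of the lowest levels of the cluster.

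The cluster held a large part of the miRNA gene counts in fetal liver. It held 893878 of 6060619 miRNA gene counts in replicate 1, a share of 14.7% (exact Clopper-Pearson 95% interval 14.72 to 14.78). In replicate 2 it held 498816 of 3487976 counts, or 14.3% (14.26 to 14.34). The mean was 14.5% ± 0.317 (SD, n = 2). Reads mapped to several places, 29.3% of all reads in replicate 1 and 31.1% in replicate 2, are not in these totals. miRNAs with copies at several loci can lose reads this way, so the cluster's share of all miRNA may be lower. The opposite-strand members supplied 28.1% of the cluster's counts in replicate 1 and 26.2% in replicate 2, and own-strand rows alone leave these counts out. In the same libraries the hepatocyte miRNAs of a marker list, Mir122 chief among them, held 16.4% ± 0.948 of counts, and the erythroid miRNAs Mir144, Mir451a and Mir486 held 2.08% ± 0.557. Both lists were present, as the label liver calls for, with 4 of 5 hepatocyte and 3 of 3 erythroid genes detected. Mir802, the hepatocyte gene below the detection minimum, had 140 counts in replicate 1 and 6 in replicate 2. Mesenchymal markers (6 of 7 detected) held 1.91% ± 0.0570 and muscle markers (4 of 7 detected) 0.209% ± 0.0751. Because the cluster is prominent in brain, neural markers were read beside it: 6 of the 14 in the tables were detected, 4 were at 0, among them the 3 Mir124a genes, and together they held 0.0277% of counts in replicate 1 and 0.0248% in replicate 2. Reads that map to several places were not counted, which can lower markers with copies at several loci. Numbered copies such as the Mir124a and Mir9 genes, and Mir1a and Mir133a among the muscle markers, are of this kind. Their low or 0 counts therefore do not show that these miRNAs were absent. The part of other cell types in the cluster's level was not tested.

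Of the 38 members, 34 were detected, meaning at least 10 counts in both libraries, against 18% of 1977 own-strand rows and opposite-strand members in all. Levels were compared as CPM per gene without division by length, since a small RNA read stands for 1 whole mature miRNA. Efficiency of adapter ligation can differ between sequences, and its part in the levels was not tested. The detected members had a median of 1306 CPM, while the 337 other detected features had a median of 89.96 CPM. Among all features ranked by level, 2 members stood in the first 10, 10 in the first 50 and 19 in the first 100. Reads mapped to several places are missing from these levels too, which can lower features with copies at several loci. The range was wide, however. At 10000 CPM and above there were 5 members, between 1000 and 10000 CPM 13, between 100 and 1000 CPM 12, between 10 and 100 CPM 3, and below 10 CPM 5. The highest detected member was 7538 times the lowest.

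**Figure D1:**
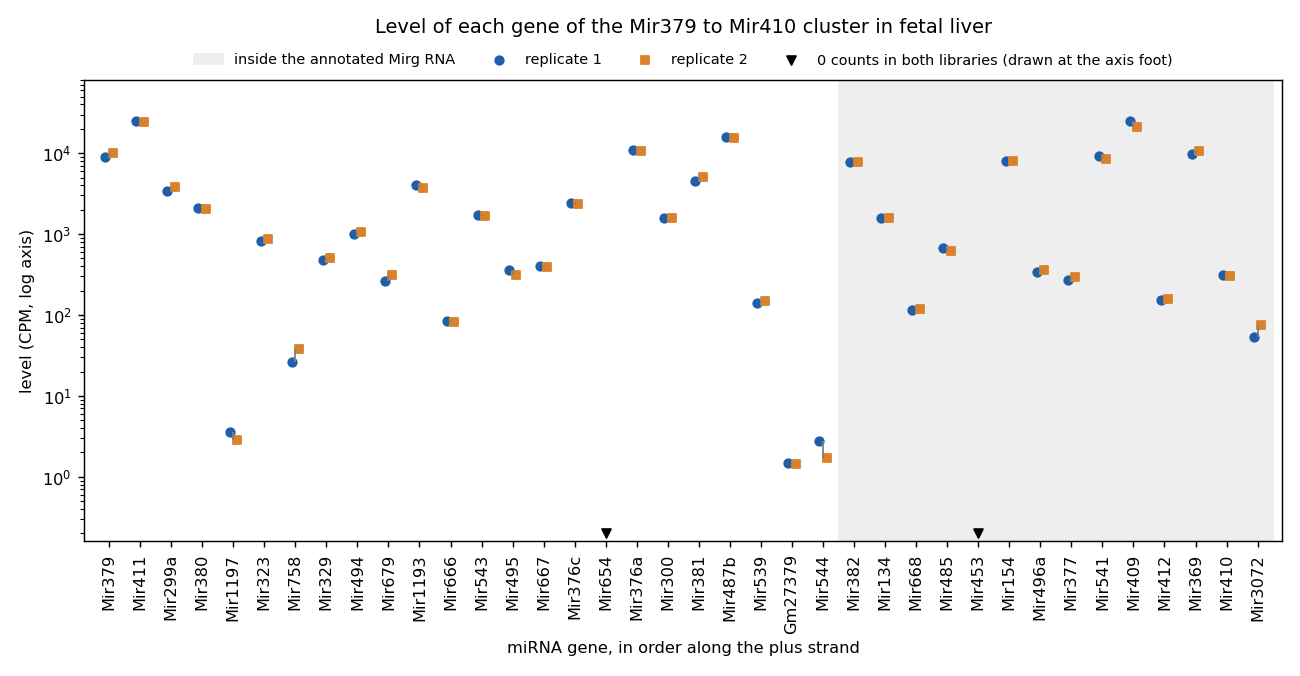
Level of each of the 38 members in CPM on a log axis, in order along the plus strand, with circles for replicate 1 and squares for replicate 2. Grey marks the members inside the annotated Mirg RNA, and triangles the members at 0 in both libraries. High and low members are mixed along the cluster, while the libraries almost coincide at each gene of at least 100 CPM.

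Mir411, at chr12:109710175-109710256 (ENSMUSG00000065477.2 in the tables), was the most abundant member, with 25020 CPM in replicate 1 and 23957 CPM in replicate 2, or 24488 ± 752 CPM. Mir409, at chr12:109743158-109743236 near the other end of the cluster, had 24949 CPM in replicate 1 and 20849 CPM in replicate 2, or 22899 ± 2899 CPM. The ranges of these members overlapped, so their order is not set by these libraries. Both were among the 10 most abundant features of the whole profile, at ranks 8 and 9.

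Mir487b, with 15873 and 15240 CPM in replicates 1 and 2, lay clearly below them, at rank 17 of all features. Mir376a followed with 11026 and 10753 CPM. Its hairpin belongs to a group whose primary transcripts are known to undergo A-to-I editing, which changes seed pairing, and edited reads were not told apart here. Mir369, whose 3p arm is known for acting on AU-rich elements of Tnf mRNA, had 9814 and 10524 CPM, and Mir379, the first gene of the cluster, 9041 and 9941 CPM.

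The ranges of Mir369 and Mir379 overlapped, and Mir541, with 9203 and 8438 CPM, was above Mir379 in replicate 1 and below it in replicate 2. Mir154, the gene for which the family of many of these hairpins is named, had 7940 and 8117 CPM. Mir382 had 7796 and 7734 CPM. These members of similar level lie far apart, Mir379 at the 5′ end and Mir369 near the 3′ end.

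The next step down was Mir381, with 4476 and 5036 CPM. Mir1193 had 4004 and 3749 CPM, and Mir299a 3427 and 3768 CPM, in reverse order in the second library. Among the 11 neighbours in the order of the 12 highest members, the ranges of 4 overlapped and the other 7 were separated in both libraries. Over all 33 neighbours among detected members, 9 had overlapping ranges.

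Counts were concentrated in a few genes. Mir411 and Mir409 together held 32.6% ± 1.80 of the cluster's counts, and with Mir487b 43.3% ± 1.88. It took 4 members to reach 50% of the cluster, 9 to reach 80% and 25 to reach 99%. The 12 highest held 89.7% ± 0.217, leaving 10.3% ± 0.217 for the other 26.

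**Figure D2:**
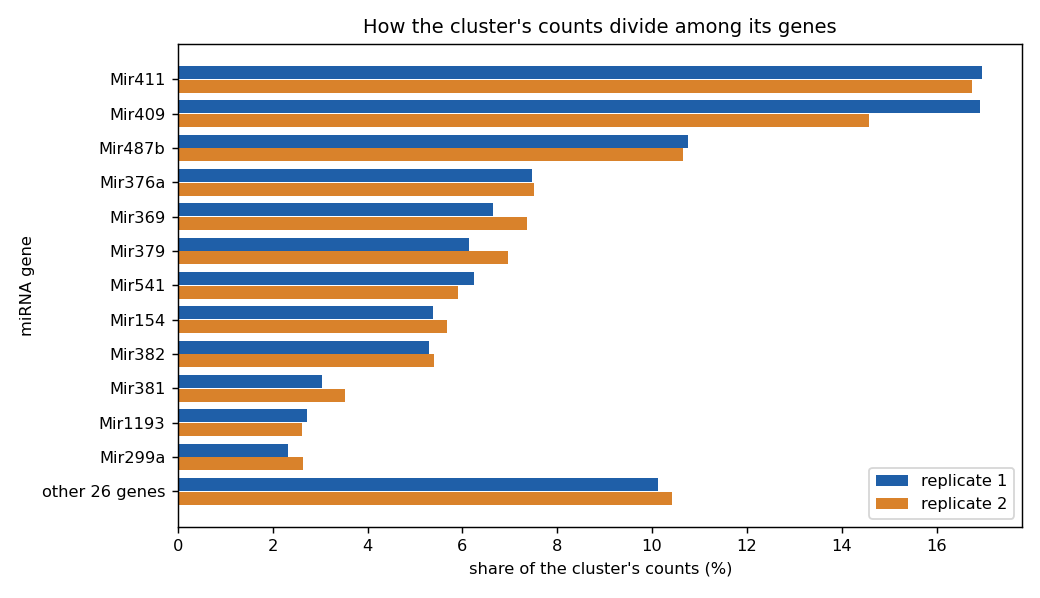
Share of the cluster's counts (%) taken by each of its 12 highest members and by the other 26 together, in replicate 1 and replicate 2. Mir411 and Mir409 each took between 14.58% and 16.96% in both libraries, and all 26 lesser members together took 10.1% and 10.4%.

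Below the first 12, some of the best studied members stood at moderate levels. Mir134, a miRNA known for limiting the size of dendritic spines in neurons through Limk1, had 1563 CPM in replicate 1 and 1582 CPM in replicate 2. Mir485, also studied at synapses, had 675 and 621 CPM, and Mir329, which with Mir134 is induced by the transcription factor Mef2 in neurons, had 485 and 507 CPM. In these libraries the counts of neural markers were low, with the limit on copies at several loci given above. Mir376c, the relative of Mir376a, had 2451 and 2347 CPM, and Mir380, counted on the opposite strand, 2099 and 2028 CPM.

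The remaining members lay between the abundant members and those near the detection minimum. Mir543 had 1725 CPM in replicate 1 and 1683 CPM in replicate 2, Mir300 1559 and 1598 CPM, and Mir494 1016 and 1063 CPM. Mir323 had 825 and 875 CPM, Mir667 398 and 396 CPM, and Mir410, for which the 3′ end of the cluster is named, 314 and 303 CPM. Mir539 had 142 and 151 CPM and Mir666 85.1 and 81.1 CPM. All of these were within 1.1-fold between the pools on TMM-scaled sizes, while their levels spanned more than an order of magnitude.

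The lowest detected members were Mir3072, with 53.5 and 74.5 CPM, Mir758, with 26.4 and 38.1 CPM, and Mir1197, with 22 and 10 counts. Mir544 fell just below the detection minimum with 17 and 6 counts, and Gm27379, a predicted gene, had 9 and 5. Mir654 and Mir453 had 0 counts in both libraries. The upper limit for such a member is 3 counts, which equals 0.495 CPM at the depth of replicate 1 and 0.860 CPM at that of replicate 2. Mir654 lies between the abundant Mir376c and Mir376a, 14.2 kb into the cluster.

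Neighbouring genes often differed widely in level. The 38 genes span 38.9 kb, and 24 of the 37 gaps between them are shorter than 1 kb, from 20 bases between Mir679 and Mir1193 to 4368 bases between Mir544 and Mir382. Spearman's rho between order and level over the 34 detected members was -0.05, given as a description, since these genes share libraries and transcripts. Adjacent detected members differed by a median of 2.79 log2 units, against 2.88 for all 561 pairs of detected members. Of the 33 adjacent pairs, 24 were at least 4-fold apart. The sharpest step was from Mir380 at 2064 CPM to its neighbour Mir1197 at 3.25 CPM, a 635-fold difference. Mir409 and Mir412, separated by less than 1 kb, differed 164-fold in replicate 1 and 134-fold in replicate 2.

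The annotated Mirg RNA, at chr12:109729764-109749460, covers the last 14 members. Of these 9 overlap an exon of at least 1 of its 12 transcripts and 5 lie in introns. Members in Mirg held 42.1% ± 1.04 of the cluster's counts, with 13 of 14 detected, and the 24 members before it held 57.9% ± 1.04, with 21 detected. Detected members had a median of 648 CPM within Mirg and 1579 CPM before it. Exonic Mir369 and intronic Mir409 and Mir154 were all abundant, and exonic Mir668, with 116 and 118 CPM, was not.

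Hairpins of like sequence could also differ widely in level. Over the 595 pairs of member hairpins, the median identity was 50.6%. The most alike were Mir411 and Mir758, 73.8% identical, whose mean levels of 24488 and 32.3 CPM were 759-fold apart. Mir300 and Mir381 were 73.8% identical, and Mir381 had 2.87 times the counts of Mir300 in replicate 1 and 3.15 times in replicate 2. Mir323 and Mir494, at 71.9% identity, were closest among the 10 most alike pairs, 1.22-fold apart. Among members with a shared seed, Mir411 had 2.77 and 2.41 times the counts of Mir379, Mir379 had 2.26 and 2.65 times those of Mir1193, and Mir494 had 3.24 and 3.51 times those of Mir410. Mir1197 was at the detection minimum beside Mir758, and Mir453 at 0 beside Mir496a, which had 341 and 358 CPM.

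The 2 pools gave nearly the same profile of the cluster. Over the 30 members of at least 100 CPM, the log2 ratio of replicate 2 to replicate 1 had an SD of 0.11 and ran from -0.28 to 0.22, on library sizes scaled by TMM. The 165 other features of at least 100 CPM had an SD of 0.21. A list of other miRNA genes of the Dlk1-Dio3 domain is described below. Its genes of at least 100 CPM ran from -0.17 for Mir431 to 0.23 for Mir370, a range similar to that of the cluster. The median log2 ratio was 0.000876 for the 30 members of at least 100 CPM and -0.00491 for all 195 features of that level. Of the 30, 24 were within 1.1-fold and none was 1.5-fold apart, while 4 of all 195 (2.05%) were. Of the 36 members tested, the 1 member 1.5-fold apart was Mir544, at 17 and 6 counts, against 26% of all 480 features.

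**Figure D3:**
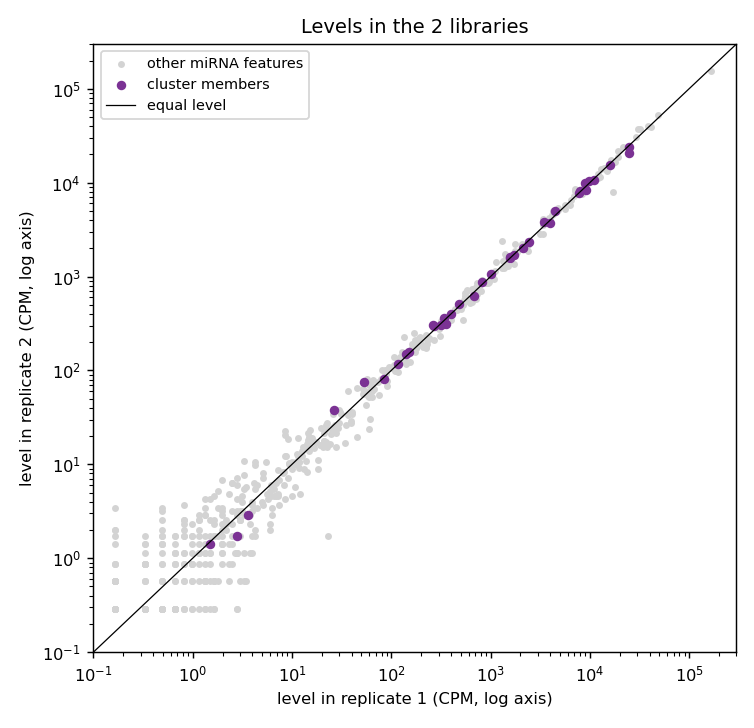
Level in replicate 1 against replicate 2 in CPM, both on log axes, for the 36 members and 551 other features with counts in both libraries. Members, in purple, lie along the line of equal level, from a mean of 1.46 CPM for Gm27379 to 24488 CPM for Mir411. Other features reach both lower and higher levels.

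With so many counts, even slight differences exceed counting error. By the exact binomial test with Benjamini-Hochberg adjustment, 19 of 36 members differed between the libraries, against 38.5% of all 480 features. Members are more deeply counted than most. Among features of at least 100 CPM, 17 of 30 members and 62.6% of 195 features differed, so the members' share is near the background. In direction, 7 members were higher in replicate 2 (18.5% of all features were) and 12 lower (20%). With total counts in place of TMM, 10 members were higher and 9 lower, beside 99 and 89 of all 480 features. The cell type markers moved between the pools too. The hepatocyte list held 17.1% of counts in replicate 1 and 15.7% in replicate 2, and all 5 of its genes were lower in replicate 2 by the same test. Their log2 ratios ran from -0.12 for Mir194-2 to -3.77 for Mir802. The erythroid list held 2.48% and 1.69%, but its genes did not move together: Mir451a fell from 17022 to 8037 CPM, while Mir144 rose from 7095 to 8104 CPM and Mir486 from 652 to 744 CPM. The muscle list held 0.156% and 0.263%, with Mir206 higher in replicate 2 (1304 and 2388 CPM), Mir133b higher (8.58 and 22.6 CPM) and Mir208b lower (74.9 and 55.0 CPM). The mesenchymal list held 1.95% and 1.87%, and 4 of its 7 tested genes differed, in both directions. Mir143 and Mir145a were lower in replicate 2 (log2 ratios -0.18 and -0.38), and Mir140 and Mir214 higher (0.25 and 0.20). The part of these cell type markers in the differences among members was not tested.

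Mir409 moved furthest down among members of at least 100 CPM, with 151207 counts in replicate 1 and 72720 in replicate 2. Its log2 ratio was -0.28 (exact 95% counting interval -0.29 to -0.27), a level 1.22-fold lower in replicate 2, past the threshold. Its counts were 2.54 times those of its neighbour Mir369 in replicate 1 and 1.98 times in replicate 2. Mir495 was next, with 2160 and 1091 counts and a log2 ratio of -0.21 (-0.32 to -0.11; exact binomial test, adjusted p = 0.000341), and Mir541 had a log2 ratio of -0.15 (-0.17 to -0.13; exact binomial test, adjusted p = 2.57e-45).

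In the other direction, Mir679 had 1579 and 1076 counts and a log2 ratio of 0.22 (0.11 to 0.33; exact binomial test, adjusted p = 0.000546). Mir381 had a log2 ratio of 0.15 (0.12 to 0.17; exact binomial test, adjusted p = 1.52e-24). Mir377, at 0.12 (0.01 to 0.24), did not pass the threshold over all features (exact binomial test, adjusted p = 0.0766), and did pass it with DESeq2 size factors or total counts. Mir409, Mir495 and Mir679 lay farther from 0 than 0.20, the SD of the log2 ratios of all 195 features of at least 100 CPM, and the other 3 lay within it. The counting intervals of Mir379 (0.11), Mir299a (0.11) and Mir369 (0.08) lay above 0 and those of Mir411 (-0.09) and Mir487b (-0.08) below it, so neighbours within 2 kb of each other, Mir379 and Mir411, moved in opposite directions by small amounts.

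**Figure D4:**
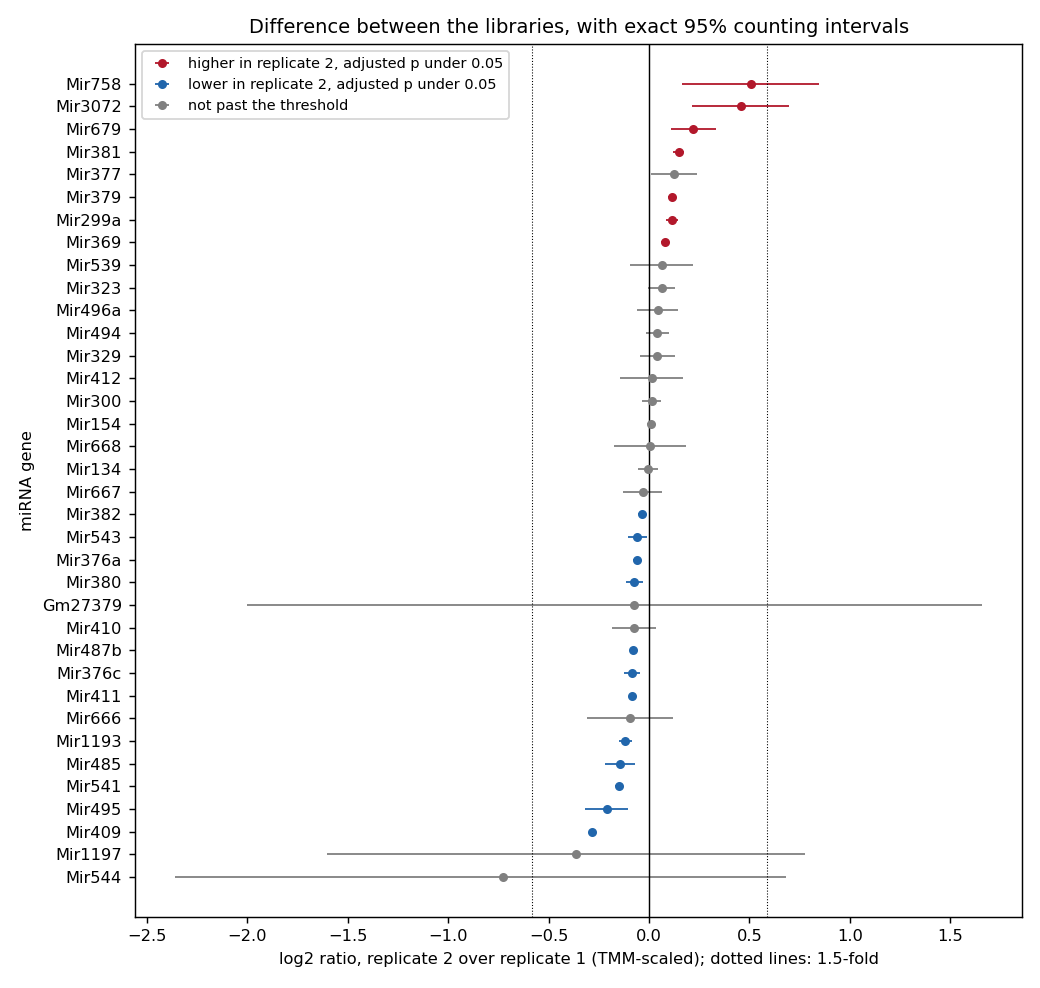
Log2 ratio of replicate 2 over replicate 1 for the 36 members tested, with exact 95% counting intervals and colour by the outcome of the exact binomial test. All members but Mir544 lie within the dotted lines at 1.5-fold, and the widest intervals belong to Mir544, Gm27379 and Mir1197, which have the fewest counts.

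A list of other miRNA genes of the Dlk1-Dio3 domain had 19 of 22 genes in the tables and 15 detected, and held 4.61% ± 0.0182 of counts, led by Mir127 with 16399 and 17251 CPM. The cluster held 3.19 times as many counts as this list in replicate 1 and 3.11 times in replicate 2. In that list 7 of 15 tested genes differed between the libraries by the exact binomial test. Among all 480 features 38.5% did, and among the 195 features of at least 100 CPM 62.6%. Detected genes of the list spread by an SD of 3.02 log2 units in level, and those of the cluster by 3.01.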

How the data were processed

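Small RNA from 2 libraries of fetal mouse liver was counted per annotated miRNA gene. Each library has 1 deposited table of read counts, whole numbers that the authors did not normalize, for both strands, the gene's own strand and the opposite strand. Per the text deposited beside them, counting used assembly mm10 and annotation M4; the aligner, the counter and any trimming are steps not given in the sources used here. Unmapped reads (23.9% and 21.4% of all reads), reads mapped to several places (29.3% and 31.1%) and reads outside miRNA genes (5.40% and 6.23%) stayed out of totals and tests.

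Each of the 1973 rows was treated as 1 feature per strand. Names and positions came from GENCODE M21 (same assembly), which matched 1894 rows. CPM divides a feature's counts by all miRNA gene counts on both strands. Detection required 10 counts in both libraries. With 1 group, edgeR's and DESeq2's tests have no contrast, so the libraries were compared feature by feature with an exact binomial test, two-sided and conditional on the summed count, on features with at least 10 counts summed. Its expected share came from TMM-scaled sizes (edgeR 4.0.16, R 4.3.3), with Benjamini-Hochberg adjustment over all features and a threshold of 0.05. It covers counting error only and compares 2 libraries, not conditions. The test was tried on simulated data that held counting error only. Without variation between pools, that trial does not show how the test behaves on these libraries. A chi-square over features (75.1 per degree of freedom, 479 degrees) showed that the tables were not 1 library deposited again. DESeq2 1.42.0 gave alternative size factors. Hairpins were folded with ViennaRNA 2.7.2 and aligned with Biopython 1.88. Reads carry no molecular identifiers, so exact Clopper-Pearson 95% intervals cover counting error only.

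Members named with values are the 12 highest, the 3 lowest detected, all below the minimum, the 3 largest ratios each way among members of at least 100 CPM, those that share a seed, and those counted on the opposite strand. Others are named for their place, sequence or known role, after their values were seen. Members and lists were chosen with earlier results of these data known.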

Additional observations from a re-analysis of the deposited data

Results flagged for a closer look

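Reads on the minus strand inside the cluster lay outside the counts used above. At Mir299b, the gene opposite to Mir299a, 50 counts in replicate 1 and 21 in replicate 2 were on its own strand, above the 3 counts that a count of 0 allows. They equal 8.25 and 6.02 CPM, beside 3427 and 3768 CPM for Mir299a on the plus strand. Whether these reads came from a minus-strand transcript was not tested. The 34 members counted on their own strand had 0 opposite-strand counts in both libraries.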

How the results depend on the processing

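The cluster's share was 10.6% of counts without the opposite-strand members, 16.0% over own-strand counts only, 12.7% with reads outside miRNA genes in the denominator and 17.3% without Mir122. With own-strand counts in both numerator and denominator, a choice made after seeing the data, it was 11.6%. It was 14.3 to 14.7% in single libraries. None of these denominators included reads mapped to several places. On own-strand counts alone the 3 highest members held 47.5% of the cluster. The SD of log2 level was 2.66 with a minimum of 50 counts. No member was 2-fold apart, a count of 0, and none 1.5-fold apart with a minimum of 50 counts summed, also 0. Detected members numbered 30 to 36 over all alternatives, and members that differed by the exact binomial test 15 to 19. The shares of all features at these detection settings and at 2-fold are not given here. On own-strand counts 15 of 32 members differed, beside 176 of all 456 features. With DESeq2 size factors 18 of 36 members did, beside 187 of all 480 features. With no minimum 18 of 36 members differed, beside 175 of all 760 features tested. With a minimum of 50 counts summed 19 of 33 members did, beside 165 of all 336 features. The members' median log2 ratio was -0.02 with TMM, -0.01 with DESeq2 size factors and 0.01 with total counts or with a minimum of 50 counts summed, so its sign depends on these choices. Of the 36 tested members, Mir134 alone changed the sign of its log2 ratio under another scaling, from -0.00491 with TMM to 0.00692 with DESeq2 size factors and 0.0181 with total counts, without passing the threshold. Mir382 and Mir543 lost their calls under both other scalings and Mir380 with total counts, while Mir377 gained one under both, and Mir154 and Mir323 with total counts. The cause of these changes was not tested. Depth limits statements on Mir1197, Mir544 and Gm27379. No paired analysis was possible because there is 1 group.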

Other observations

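Members' hairpins were poorer in G and C than most. Their median GC content was 43.4%, from 29.1% to 72.3%, against a median of 51.7% over the 1005 mouse hairpins in the table. Of the 69 member arms 4 began with C and 37.7% with A, against 20.4% (C) and 25.5% (A) of all 1738 mature entries. Over the 33 detected members with a hairpin, Spearman's rho with level was -0.27 for GC content and 0.18 for predicted folding energy, which ran from -46.7 to -16.6 kcal per mol, weak relations given as descriptions. A seed found also outside the interval was carried by 10 of the 69 arms: that of miR-329-3p is shared with miR-362-3p, and that of miR-410-3p with miR-344d-3p and miR-344e-3p.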
